A study of Mus musculus with 5 samples.

Results

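The cells described here are the ciliated airway cells of the late fetal mouse lung, taken from single-cell RNA libraries of dissociated whole lungs. A barcode was counted as ciliated when it had a unique molecular identifier (UMI) for at least 3 of 7 ciliated-cell genes: Foxj1, Ccdc153, Tmem212, Dynlrb2, Rsph1, Fam183b and 1110017D15Rik. It also had to hold at least 500 genes, at most 15% mitochondrial UMIs, and no UMI of the leukocyte gene Ptprc, the endothelial genes Cdh5 and Pecam1 or the fibroblast gene Pdgfra. This rule found 355 barcodes among 19491 that met the gene and mitochondrial limits, out of 50355 deposited. By library, the members numbered 152 (Het1) and 83 (Het2) against 49 (KO1), 41 (KO2) and 30 (KO3). Het denotes embryos with 1 mutant and 1 intact Zswim8 allele (Zswim8+/-) and KO embryos with both alleles mutant (Zswim8-/-), so every embryo carried at least 1 mutant allele and none was wild type. All 5 embryos were at stage E18.5, each gave 1 library of 3′ transcript-end counts, and 2 were Het and 3 KO. The labels name neither the strain nor how the allele was made, and they mention no pooling of embryos.

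Ciliated cells line the conducting airways between secretory (club) cells and clear mucus by the beating of motile cilia. Multicilin (Mcidas), Myb and Foxj1 start their programme, deuterosomes built with Deup1 then make the many centrioles that become basal bodies, and the axoneme is assembled from doublet microtubules, dynein arms, radial spokes and a central apparatus. Zswim8 encodes the substrate adaptor of a Cullin 3 ubiquitin ligase that degrades Argonaute when a trigger transcript pairs extensively with its microRNA, which destabilises that microRNA. The series is about the effect of Zswim8 loss on RNA levels in the embryo, and here the question is put to ciliated cells.

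Member UMIs summed to 3034046 (Het1) and 1769393 (Het2) against 1532587 (KO1), 1586800 (KO2) and 1459357 (KO3), and these sums are the unit of every test between genotypes. Values are CPM, a gene's UMIs scaled to the usual fixed total of each library's summed UMIs, after adjustment by the trimmed mean of M-values, and as transcript-end counts they are not divided by gene length. The 2 Het embryos and KO3 were male and KO1 and KO2 female by their Y-linked UMIs, so sex was partly aligned with genotype. Zswim8 itself (chr14:20707552-20723619, + strand, GRCm38) was read at 47.3 CPM (Het1) and 42.4 CPM (Het2) against 47.3 (KO1), 43.7 (KO2) and 54.8 CPM (KO3). It differed by 0.11 ± 0.18 (log2, KO minus Het, ± SE, edgeR adjusted p = 0.989), and counts at the 3′ end do not check an upstream mutation, so the genotypes below rest on the labels. No member barcode was shared between libraries, and p-values measure the spread between these 5 libraries.

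The label was checked on 143 motile cilia genes that the rule did not use. In the median member with at least 10000 UMIs, their share of UMIs was 2.04% (Het1) and 2.19% (Het2) against 1.81% (KO1), 2.37% (KO2) and 2.29% (KO3). In kept barcodes with none of the 7 rule genes the median was 0.115% to 0.1505%. Members of that depth above the 99th percentile of those barcodes in their own library numbered 46 of 54 (Het1) and 28 of 30 (Het2) against 23 of 33 (KO1), 26 of 26 (KO2) and 25 of 28 (KO3), so KO1 held the most that did not reach it. Barcodes with exactly 3 rule genes, just inside the rule, had medians of 1.24% (Het1) and 0.871% (Het2) against 1.45% (KO1), 0.842% (KO2) and 0.478% (KO3). Those with 2 rule genes, just outside, had 0.887% (Het1) and 0.805% (Het2) against 0.227% (KO1), 0.501% (KO2) and 0.142% (KO3), and those with 1 had 0.118% to 0.144%. Red-cell barcodes, with fewer than 500 genes and over 50% haemoglobin UMIs, served as the measure of free RNA. Of these, 11 of 6595 in Het1, 1 of 1865 in KO1 and 0 in Het2, KO2 and KO3 reached 3 rule genes, where 0 allows up to 0.0715%, 0.0757% and 0.0948%. A UMI of Foxj1 alone was present in 0.378% to 1.98% of red-cell barcodes. The endothelial marker list summed to 106 CPM (Het1) and 101 CPM (Het2) against 85.6 (KO1), 57.6 (KO2) and 59.6 CPM (KO3). The basal list summed to 277 CPM (Het1) and 405 CPM (Het2) against 460.5 (KO1), 454 (KO2) and 395 CPM (KO3), nearly all of it the keratin gene Krt15 (276 to 459 CPM), while the defining basal gene Krt5 had 0 UMIs in every library and Trp63 0 to 3. No caller for barcodes with 2 cells was run, and a few members carried many transcripts of another cell type. In Het1, 1 member held 135 of the 171 UMIs of the smooth muscle actin gene Acta2. Of the 171 members with at least 10000 UMIs, called deep members here, 5 held over 100 UMIs of the alveolar type 2 surfactant gene Sftpc, 2 in Het1, 2 in KO1 and 1 in KO3, and together 79.8% of its UMIs.

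Ciliated barcodes were a smaller share of each KO library than of either Het library when all depths were counted, and the groups overlapped among deeply read barcodes. Their share of kept barcodes was 3.15% (Het1) and 1.97% (Het2) against 1.57% (KO1), 1.23% (KO2) and 0.747% (KO3), with an exact 95% binomial interval of 2.68% to 3.69% in Het1 and 0.505% to 1.07% in KO3 (Clopper-Pearson, counting error only). The mean was 2.56% ± 0.834 (SD, n = 2) for Het and 1.18% ± 0.412 (SD, n = 3) for KO, and the groups did not overlap. An exact two-sided permutation test gave p = 0.1, the smallest that 2 against 3 libraries allow. Median UMIs per member were 2546.5 (Het1) and 4647 (Het2) against 22072 (KO1), 26216 (KO2) and 36742 (KO3), so the members of the 2 Het libraries were the shallowest. Among barcodes of at least 10000 UMIs the members numbered 54 (Het1) and 30 (Het2) against 33 (KO1), 26 (KO2) and 28 (KO3), and their share was 2.08% (Het1) and 1.22% (Het2) against 2.11% (KO1), 1.35% (KO2) and 1.07% (KO3). At that depth the means were 1.65% ± 0.605 (SD, n = 2) and 1.51% ± 0.537 (SD, n = 3), the groups overlapped, and the exact permutation p was 0.8. With limits of 1000 genes and 10% mitochondrial UMIs instead, the share was 1.76% (Het1) and 1.74% (Het2) against 1.11% (KO1), 0.917% (KO2) and 0.614% (KO3). The groups did not overlap there (exact permutation p = 0.1), and the share of epithelial barcodes had an exact permutation p of 0.3. Among epithelial barcodes the ciliated share was 22.1% (Het1) and 15.3% (Het2) against 13.96% (KO1), 13.2% (KO2) and 8.09% (KO3) over all depths (exact permutation p = 0.1). At 10000 UMIs or more it was 15.5% (Het1) and 10% (Het2) against 20.1% (KO1), 12.9% (KO2) and 11.1% (KO3) (exact permutation p = 0.7). The 184 members below 10000 UMIs numbered 98 (Het1) and 53 (Het2) against 16 (KO1), 15 (KO2) and 2 (KO3). Their median share of motile cilia UMIs was 1.36% (Het1) and 0.983% (Het2) against 2.29% (KO1), 0.933% (KO2) and 2.52% (KO3). Their median haemoglobin share was 4.79% (Het1) and 2.22% (Het2) against 1.02% (KO1), 1.801% (KO2) and 0.776% (KO3), and it was 0.0595% to 0.146% in deep members. The deep members carried 89.7% to 99.5% of all member UMIs, so the sums describe mainly them. The part of free RNA in the shallow members was not tested.

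**Figure D1:**
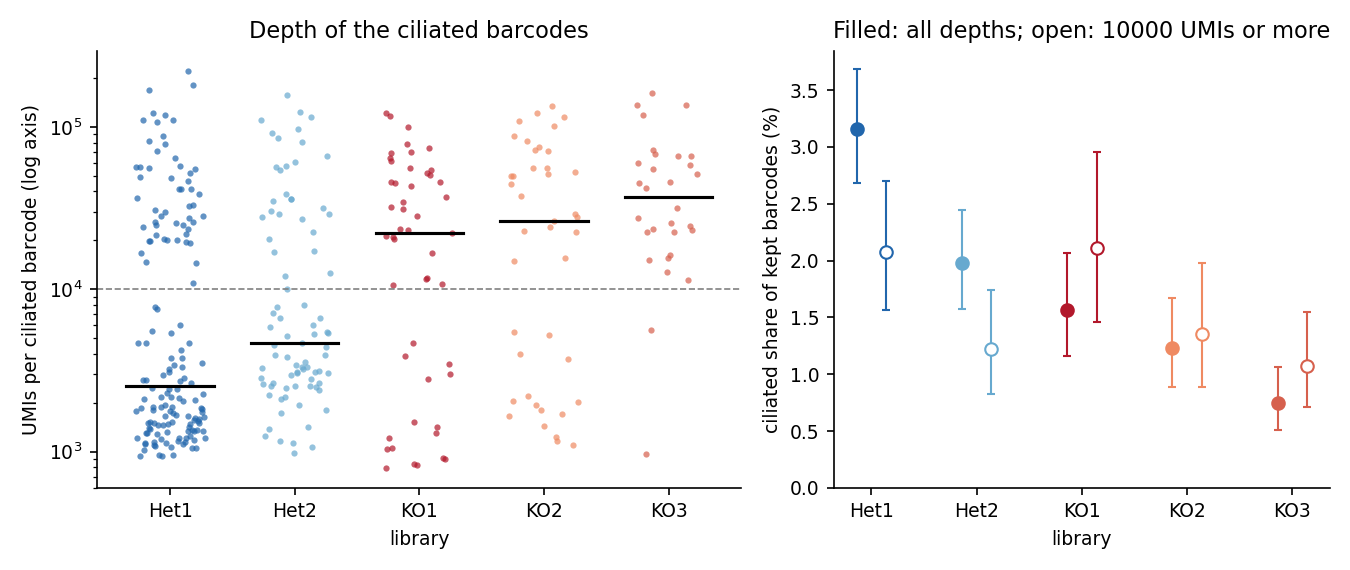
Left, UMIs of each of the 355 ciliated barcodes (log axis) by library, with the median as a bar and 10000 UMIs as a dashed line; Het1 and Het2 hold most of the barcodes under the line. Right, the ciliated share of kept barcodes in percent with exact 95% intervals, over all depths (filled) and at 10000 UMIs or more (open); the filled Het points lie above the KO points and the open ones overlap.

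Genes of the axoneme were among those with the largest ratio of ciliated to other epithelial levels. This is a description with no test, since the same barcodes were chosen by such genes. The comparison group was the 1774 other epithelial barcodes, which had UMIs for at least 3 of the 6 genes Epcam, Cdh1, Krt8, Krt18, Krt19 and Nkx2-1, at most 1 rule gene with at most 1 UMI of it, and none of the 4 excluded genes. Among genes averaging 100 CPM or more over the ciliated sums, 5 of the 10 with the largest ratio to that group were rule genes, led by the radial spoke gene Rsph1 (552 against 0.9101 CPM). The others were 4833427G06Rik (186 against 0.362 CPM), BC051019 (188 against 0.378), the microtubule inner protein gene Cfap161 (101 against 0.226), 1700012B09Rik (239.7 against 0.725) and Ccdc113 (263 against 0.806). The other epithelial sums held 7 UMIs of Cfap161 and 42 of Foxj1, the fewest and the most among the 10.

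Among the regulators, the transcription factor gene Foxj1 was read at 548 CPM (Het1) and 618 CPM (Het2) against 389.8 (KO1), 544 (KO2) and 627 CPM (KO3). Its partners in the programme were lower: Myb ranged over 222 to 366 CPM among the 5 libraries, Mcidas over 59.2 to 97.1 CPM and the X-box factor gene Rfx3 over 58.7 to 83.7 CPM. Of the genes of centriole amplification, Cetn2 spanned 373 to 469 CPM, the centriolar satellite gene Pcm1 306 to 454 CPM, Deup1 256 to 459 CPM and Ccno 197 to 301 CPM. KO1 was the lowest of the 5 libraries for Foxj1, Myb, Deup1 and Ccno. The tubulin genes Tubb4b (1505 to 2574 CPM) and Tuba1a (758 to 1109 CPM), with the surface glycoprotein gene Cd24a (728 to 880.1 CPM), had the highest levels of the 143 genes. In the outer dynein arm, the intermediate chain gene Dnaic2 spanned 87.6 to 121 CPM, the heavy chain gene Dnah5 89.7 to 106 CPM and the docking gene Ttc25 86.3 to 98.6 CPM, beside the rule gene Dynlrb2 at 818 to 1173 CPM. The inner arm genes with the most UMIs were Dnali1 at 147 to 210.03 CPM, Dnah12 at 119 to 174 CPM and Wdr78 at 130.2 to 158 CPM. Of the factors that assemble dynein arms in the cytoplasm, Zmynd10 was the highest at 195 to 309 CPM, followed by Lrrc6 (52.7 to 73.2 CPM) and Dnaaf4 (48.6 to 64.3 CPM). The radial spoke genes Nme5 and Rsph9 spanned 189 to 238 CPM and 173 to 227 CPM, and Rsph1, a rule gene, 409 to 603 CPM. Central apparatus genes were Spag17 (208 to 285 CPM), Spag6l (106 to 133 CPM) and Spef2 (95.7 to 135 CPM). The axonemal ruler genes Ccdc39 and Ccdc40 spanned 259 to 359.7 CPM and 89.5 to 120.1 CPM, and Drc3 of the nexin-dynein complex 121 to 158 CPM. Inside the doublets, Cfap126, Tekt1 and Mns1 spanned 273 to 325 CPM, 186 to 290.4 CPM and 169.9 to 249.9 CPM. Intraflagellar transport genes, which also serve primary cilia, were read in other epithelial cells too: Ift20 averaged 381 CPM against 155 CPM in other epithelial cells, Ift43 307 against 65.98, and Ift22 306 against 15.8. The late cilium-tip gene Sntn was low, at 97.7 CPM (Het1) and 69.03 CPM (Het2) against 68.1 (KO1), 60.7 (KO2) and 16.4 CPM (KO3).

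Many cilia genes carry an X-box, the palindromic site bound by RFX factors such as Rfx3, and 5 promoters are shown because these genes are read together in the members. The half-sites GTNNCC and GGNAAC with 2 bases between them, searched on both strands of RefSeq promoters of 300 bases (250 before to 50 after the start, GRCm38.p6), occurred for 15 of the 121 motile cilia genes with a promoter (12.4%) and for 403 of 27025 genes in all (1.49%). Counted over promoters, the shares were 11.3% and 1.29%. Each sequence lies before the start, is written 5′ to 3′ on the gene's strand, and has the match, on either strand, in capitals with 8 bases on either side.
Deup1: gaggccgcGTCTCCATGGCAACccactggg
Ccno: gggctgcgGTTGCCACGGTGACgacagacg
Ccdc151: cgcgggcgGTTTCCTTGGGAACgtgggcgg
Tekt4: ccccacctGTGTCCTGGGAAACaaactcat
Ift57: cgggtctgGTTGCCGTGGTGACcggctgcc
They lie at chr9:15627912-15627941 (- strand), chr13:112987575-112987604 (+ strand), chr9:22002647-22002676 (- strand), chr17:25471422-25471451 (+ strand) and chr16:49699199-49699228 (+ strand) in that order. The genes belong to the deuterosome (Deup1), to the cyclin-like switch for multiciliation (Ccno), to outer arm docking (Ccdc151, 76.5 to 106 CPM), to the doublet interior (Tekt4, 101 to 138 CPM) and to intraflagellar transport (Ift57, 73.3 to 106 CPM). None of the 5 passed the test between genotypes, and a match is a description of letters, not of binding.

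Among members, no motile cilia gene outside the rule passed the test between genotypes, and most estimates lay close to zero. Members were themselves chosen by cilia genes. In every library, barcodes with 3 rule genes had a higher median share of motile cilia UMIs outside the rule than those with 1. The estimates therefore describe cells that kept enough of these transcripts to be counted, and a loss beyond that was not tested. Of 10275 genes tested in the ciliated sums (edgeR quasi-likelihood, two-sided, Benjamini-Hochberg adjusted p under 0.05), 24 passed, or 0.234%, with 2 higher in KO (0.0195%) and 22 lower (0.214%). Of the 140 motile cilia genes tested outside the rule, 0 passed, and 1 had an unadjusted p under 0.05, against 576 of all genes (5.61%). DESeq2 also called 0 of them, while edgeR called 2 without the low-count filter and 1 in members with deuterosome-stage genes. Their median difference was -0.03 (log2), against 0.01 over all genes, and with scaling by library size alone it was 0.07 against 0.0999, so no direction is given. Without the exclusion of barcodes holding leukocyte, endothelial or fibroblast genes the median was -0.34, with 128 of 142 below zero and 0 called. Estimates of 139 of the 140 lay within 0.5 of zero, with a median SE of 0.19. The summed level of the 143 genes was 19516 CPM (Het1) and 19606 CPM (Het2) against 15917 (KO1), 20258 (KO2) and 19408 CPM (KO3), so KO1 was the lowest.

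Many of the 24 calls were lost when Het1 was left out or when sex was a covariate. With sex as a covariate 5 genes passed, and of the 24 these were Scgb1a1, Retnla and H19. The estimates of calls lost there stayed near their values without sex for Cbr2 (-1.196 against -1.21), Nfkbiz (1.17 against 1.21), Aldh1a1 (-1.31 against -1.16), Cp (-2.77 against -2.48) and C3 (-1.69 against -1.799), all on the log2 scale, and that of Saa3 was -2.63 against -3.63. Without Het1 4 genes passed, and of the 24 these were Scgb1a1, Retnla and Cbr2. Without KO1 52 genes passed, with no exclusion of other cell types 14 passed, and with no low-count filter 208. Among members of at least 10000 UMIs 18 passed, all of them among the 24.

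By role, the median log2 difference was 0.09 for 10 ciliogenesis regulators, 0.09 for 12 centriole amplification genes and -0.04 for 10 outer arm genes. It was 0.04 for 12 inner arm genes, -0.05 for 9 assembly factors, -0.08 for 11 spoke genes and 0.05 for 10 central apparatus genes. The nexin-dynein complex (9 genes), doublet interior (17) and intraflagellar transport with the BBSome (30) had medians of -0.05, -0.07 and -0.04. In the list of ciliary tubulins and small proteins all 10 estimates were below zero (median -0.11), and none passed. The 1 motile cilia gene with an unadjusted p under 0.05 was Tubb4b, the beta-tubulin of cilia, at 2332 CPM (Het1) and 2574 CPM (Het2) against 1505 (KO1), 2007 (KO2) and 1922 CPM (KO3). All 3 KO libraries lay below both Het libraries, with a difference of -0.44 ± 0.13 (edgeR adjusted p = 0.559), while 21.4% of all genes tested had groups that did not overlap. Sntn had the estimate farthest from zero among the 140, -0.79 ± 0.37 (edgeR adjusted p = 0.906), with its lowest value in KO3. Deup1 was read at 273 CPM (Het1) and 384 CPM (Het2) against 256 (KO1), 368 (KO2) and 459 CPM (KO3), with a difference of 0.14 ± 0.23 (edgeR adjusted p = 0.989). For the outer arm motor Dnah5 the values were 106 CPM (Het1) and 91.4 CPM (Het2) against 105 (KO1), 100.1 (KO2) and 89.7 CPM (KO3), a difference of -0.01 ± 0.15 (edgeR adjusted p = 0.994).

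**Figure D2:**
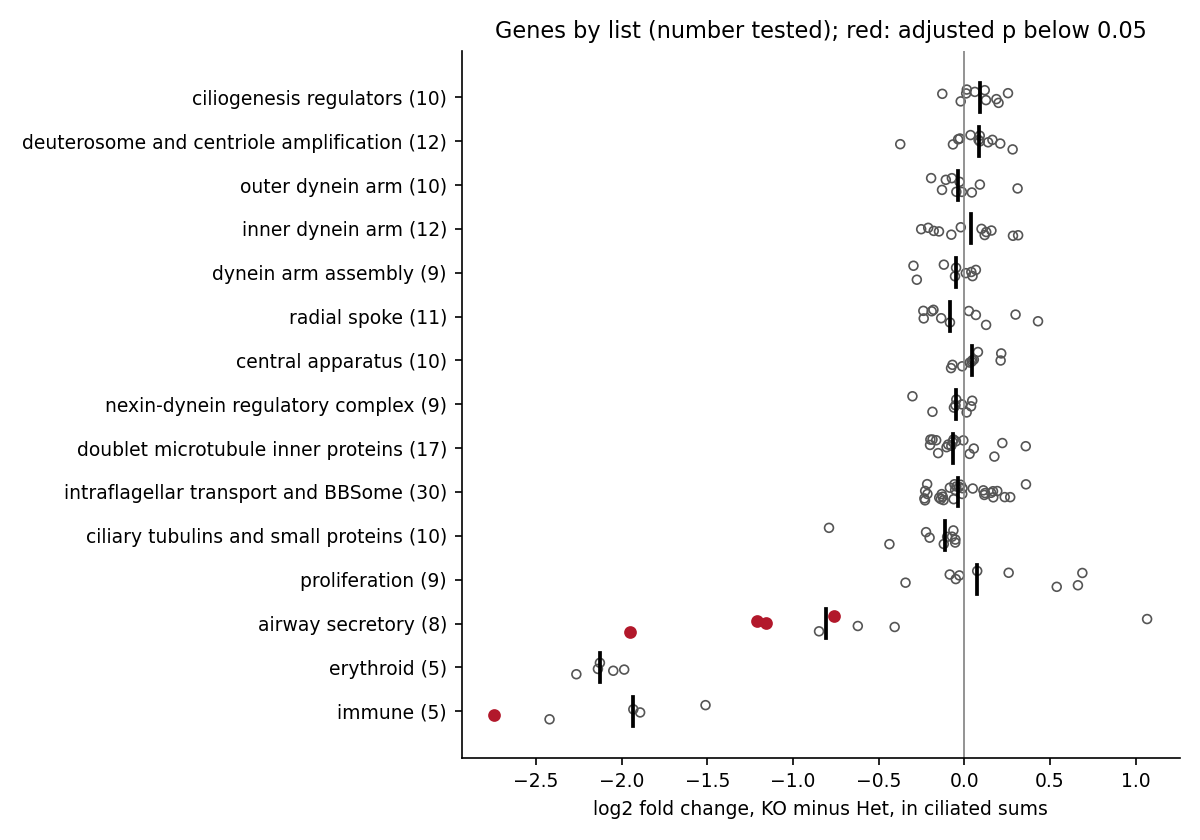
Log2 fold change (KO minus Het) of each tested gene in the ciliated sums, by list with the number tested, the median as a bar and genes past the threshold in red. The motile cilia lists centre near zero with 0 genes past the threshold, and 4 of 8 airway secretory genes lie below zero in red.

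Transcripts of airway secretory cells were among the genes lower in the ciliated sums of KO embryos. Of 8 genes of the secretory list, 4 fell (Scgb1a1, Cbr2, Aldh1a1 and Hp), 0 rose and 7 had an estimate below zero, with a median of -0.81 (log2) against 0.01 over all genes and a background of 0.214% of genes that fell. Scgb1a1 (chr19:9083636-9087958, - strand), the club cell secretory protein, was read at 16312 CPM (Het1) and 18496 CPM (Het2) against 5526 (KO1), 3934 (KO2) and 4021 CPM (KO3). Both Het libraries lay above every KO library, with means of 17404 ± 1544 (SD, n = 2) and 4494 ± 895 CPM (SD, n = 3) and a log2 difference of -1.95 ± 0.14 (edgeR adjusted p = 1.08e-04). It passed in 17 of 17 other settings, including the fit with sex as a covariate (adjusted p = 0.00364). Cbr2, a carbonyl reductase of club cells, was read at 3530.4 CPM (Het1) and 3811 CPM (Het2) against 1753 (KO1), 1398 (KO2) and 1599 CPM (KO3), again without overlap, and fell by 1.21 ± 0.12 (edgeR adjusted p = 0.00108). With sex as a covariate its adjusted p was 0.0773. Aldh1a1, a retinaldehyde dehydrogenase, was read at 169.9 CPM (Het1) and 178 CPM (Het2) against 85.6 (KO1), 78.2 (KO2) and 69.9 CPM (KO3), a change of -1.16 ± 0.15 (edgeR adjusted p = 0.00849). The haptoglobin gene Hp stood at 2146 CPM (Het1) and 2483 CPM (Het2) against 1473 (KO1), 1170.1 (KO2) and 1450.2 CPM (KO3), a change of -0.76 ± 0.13 (edgeR adjusted p = 0.0449). Both missed the threshold without Het1 (adjusted p = 0.0966 and 0.204), Het2 (0.0548 and 0.491) or KO2 (0.0518 and 0.0804), and Hp also without KO3 (0.102). Scgb3a2, the other major secretoglobin, had 17602 CPM (Het1) and 20617 CPM (Het2) against 8879 (KO1), 8871 (KO2) and 14097 CPM (KO3), and its difference of -0.85 ± 0.17 missed the threshold (edgeR adjusted p = 0.0963). Cyp2f2 (-0.62 ± 0.21, adjusted p = 0.703) and Cldn10 (-0.41 ± 0.14, adjusted p = 0.692) missed it too, and Scgb3a1 varied from 0.649 to 97.96 CPM. The summed secretory list was 41498 CPM (Het1) and 47691 CPM (Het2) against 19380.2 (KO1), 16593 (KO2) and 22538 CPM (KO3), without overlap.

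Scgb1a1 was detected in most members of at least 10000 UMIs: 52 of 54 (Het1) and 29 of 30 (Het2) against 28 of 33 (KO1), 23 of 26 (KO2) and 25 of 28 (KO3). In the median deep member, Scgb1a1 UMIs per 10000 were 51.9 (Het1) and 50.01 (Het2) against 1.74 (KO1), 11.9 (KO2) and 7.56 (KO3), so the median member as well as the sum was lower in each KO library. A deep member held on average 847 UMIs (Het1) and 794 UMIs (Het2) against 257 (KO1), 239.8 (KO2) and 209.6 UMIs (KO3), at median depths of 34558.5 to 51891.5 UMIs. A red-cell barcode held 0.471 UMIs (Het1) and 0.274 UMIs (Het2) against 0.229 (KO1), 0.102 (KO2) and 0.1397 UMIs (KO3), at median depths of 2328 to 2624 UMIs. The part of free RNA in the Scgb1a1 counts was not tested beyond these values. In 2 of the other settings, members of at least 10000 UMIs and members without the highest 5% of UMIs, the Scgb1a1 difference was -1.86 (edgeR adjusted p = 1.38e-04) and -1.83 (adjusted p = 4.16e-05). Among deep members the secretory share rose with depth (Spearman rho 0.48 over 171 barcodes that share libraries), and the part of barcodes with 2 cells was not tested.

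Of the other 18 genes that fell, Retnla had the smallest adjusted p. Retnla (chr16:48842551-48844461, + strand), a small secreted resistin-like protein, was read at 90.9 CPM (Het1) and 61.2 CPM (Het2) against 4.54 (KO1), 6.67 (KO2) and 9.59 CPM (KO3). The groups did not overlap, at 76.03 ± 21.02 (SD, n = 2) against 6.93 ± 2.54 CPM (SD, n = 3), and the difference was -3.47 ± 0.29 (edgeR adjusted p = 3.70e-04). Deep members with a Retnla UMI numbered 30 of 54 (Het1) and 12 of 30 (Het2) against 6 of 33 (KO1), 8 of 26 (KO2) and 6 of 28 (KO3). A deep member held on average 4.61 UMIs (Het1) and 3.1 UMIs (Het2) against 0.212 (KO1), 0.423 (KO2) and 0.5 UMIs (KO3) of Retnla, and a red-cell barcode 0.0989 UMIs (Het1) and 0.0691 UMIs (Het2) against 0.0499 (KO1), 0.0282 (KO2) and 0.0304 UMIs (KO3). Other epithelial cells held Retnla at 152 to 1911 CPM, more than the ciliated cells of each library, and the part of their RNA in the ciliated sums was not tested. Retnla passed in 16 of 17 other settings and missed with no exclusion of other cell types (adjusted p = 0.0844). The serum amyloid gene Saa3 was read at 139 CPM (Het1) and 187 CPM (Het2) against 0 (KO1), 13.3 (KO2) and 26.03 CPM (KO3), with 0 UMIs in KO1. Its fitted change was -3.63 ± 0.504 (edgeR adjusted p = 0.0116, DESeq2 adjusted p = 0.9997), and 1 member held 55.04% of its UMIs in Het1 and 28.9% in Het2. Saa3 missed the threshold without Het1 (adjusted p = 0.065), Het2 (0.06) or KO2 (0.0804). Ceruloplasmin (Cp) was read at 64.3 CPM (Het1) and 47.2 CPM (Het2) against 5.19 (KO1), 16.4 (KO2) and 8.22 CPM (KO3), a change of -2.48 ± 0.33 (edgeR adjusted p = 0.00951). Complement C3 was read at 60.6 CPM (Het1) and 49.7 CPM (Het2) against 14.3 (KO1), 16.4 (KO2) and 17.1 CPM (KO3), a change of -1.799 ± 0.21 (edgeR adjusted p = 0.0045). Cp and C3 missed it without Het1 (adjusted p = 0.133 and 0.0761). Lcn2, an iron-siderophore trap, fell by 2.07, the chitinase-like gene Chil1 by 1.73, the protease inhibitor gene Spink5 by 1.74 and the glutathione transferase gene Gsta3 by 1.84 on the log2 scale (edgeR adjusted p = 0.0225, 0.0404, 0.0116 and 0.0204). Beyond the largest changes, chosen after their values were seen, transferrin (Trf) was read at 1241 CPM (Het1) and 1186 CPM (Het2) against 586 (KO1), 413 (KO2) and 623 CPM (KO3). Surfactant protein D (Sftpd), made by alveolar type 2 and club cells, was read at 254 CPM (Het1) and 309 CPM (Het2) against 137 (KO1), 65.5 (KO2) and 87.7 CPM (KO3), while the sum of the type 2 marker list did not follow genotype, at 1402 CPM (Het1) and 638 CPM (Het2) against 3455 (KO1), 381 (KO2) and 2082 CPM (KO3). Trf and Sftpd fell by 1.17 and 1.54 (edgeR adjusted p = 0.0116 and 0.0207). The remaining 5 were Fmo2, Rasl11a, Pglyrp1, B430010I23Rik and Ces1d, at -1.68, -1.13, -1.32, -1.38 and -0.98 (log2, edgeR adjusted p = 0.0204, 0.0114, 0.00607, 0.00892 and 0.0449). Fmo2 encodes a flavin monooxygenase, Pglyrp1 a peptidoglycan-binding protein and Ces1d a carboxylesterase. The 11 genes from Lcn2 on all missed the threshold without Het1 (adjusted p = 0.0504 to 0.625). Without Het2 Chil1, Spink5, Gsta3, Trf, Sftpd, Rasl11a and Ces1d missed it (0.0763 to 0.42), without KO2 Lcn2, Gsta3, Sftpd, Fmo2, Rasl11a, B430010I23Rik and Ces1d (0.0518 to 0.119), and without KO3 Lcn2, Chil1, Gsta3, Sftpd, Fmo2 and Ces1d (0.0752 to 0.13). All 24 called genes had groups without overlap, as had 21.4% of the genes tested.

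S100a9, a calgranulin gene of neutrophils, and the stefin A genes Cstdc5 and Stfa1 also fell, at low levels. S100a9 was read at 114 CPM (Het1) and 43.6 CPM (Het2) against 11.03 (KO1), 10.9 (KO2) and 14.4 CPM (KO3), a change of -2.74 ± 0.37 (edgeR adjusted p = 0.011), and 1 member of Het1 held 44.3% of its UMIs there. A red-cell barcode held on average 0.722 UMIs (Het1) and 0.528 UMIs (Het2) against 0.238 (KO1), 0.275 (KO2) and 0.254 UMIs (KO3), so the free level was itself higher in both Het libraries. A deep member held 4 UMIs (Het1) and 1.07 UMIs (Het2) against 0.485 (KO1), 0.5 (KO2) and 0.714 UMIs (KO3). Cstdc5 and Stfa1 were at -2.79 and -2.41 (edgeR adjusted p = 0.0116 and 0.0116), and stefin A genes have near-identical copies among which reads can be split. In Het1, 1 member held 35.3% of the Cstdc5 UMIs and 1 member held 35% of the Stfa1 UMIs. In members of at least 10000 UMIs Cstdc5, S100a9 and Stfa1 missed the threshold (adjusted p = 0.199, 0.127 and 0.157), as they did without Het1 (0.379, 0.065 and 0.379) or KO2 (0.0779, 0.0761 and 0.0779). Summed over the immune list the level was 346 CPM (Het1) and 179 CPM (Het2) against 56.4 (KO1), 65.5 (KO2) and 89.7 CPM (KO3), and over the erythroid list 12370.2 CPM (Het1) and 13778 CPM (Het2) against 1554 (KO1), 6211 (KO2) and 1537 CPM (KO3), with no overlap between the groups in either. Of the immune list, 5 of 9 genes passed the low-count filter and 1, S100a9, fell. For S100a8, another gene of that list, 1 member held 53.7% of the Het1 UMIs. The 5 erythroid genes had estimates from -2.27 to -1.99, and 0 passed (smallest edgeR adjusted p = 0.0667). The part of free RNA in the other calls was not tested beyond the values given.

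H19 and Nfkbiz were the 2 genes that rose. H19 (chr7:142575529-142578143, - strand), an imprinted long noncoding RNA that hosts miR-675, was read at 215 CPM (Het1) and 266 CPM (Het2) against 699.8 (KO1), 815 (KO2) and 707 CPM (KO3). Every KO library lay above both Het libraries, at 741 ± 64.7 (SD, n = 3) against 240.3 ± 36.1 CPM (SD, n = 2), a change of 1.63 ± 0.15 (edgeR adjusted p = 0.00103). Deep members with an H19 UMI numbered 42 of 54 (Het1) and 20 of 30 (Het2) against 31 of 33 (KO1), 24 of 26 (KO2) and 24 of 28 (KO3). H19 passed in 16 of 17 other settings and missed only without Het1 (adjusted p = 0.0509). Red-cell barcodes also held more H19 in the KO libraries, with averages of 0.0834 UMIs (Het1) and 0.06795 UMIs (Het2) against 0.534 (KO1), 0.147 (KO2) and 0.213 UMIs (KO3). The average deep member held 9.98 UMIs (Het1) and 13.2 UMIs (Het2) against 32.3 (KO1), 49.6 (KO2) and 36.8 UMIs (KO3). The mesenchymal marker list summed to 217 CPM (Het1) and 65.4 CPM (Het2) against 281 (KO1), 29.1 (KO2) and 66.4 CPM (KO3) and overlapped between the groups. Nfkbiz (chr16:55811375-55838899, - strand), which encodes a nuclear IκB protein, was read at 43.6 CPM (Het1) and 46.6 CPM (Het2) against 126 (KO1), 86.1 (KO2) and 101 CPM (KO3), a change of 1.21 ± 0.19 (edgeR adjusted p = 0.0225). It missed the threshold with sex as a covariate (adjusted p = 0.29) and without Het1 (0.379), Het2 (0.143) or KO3 (0.068). Next by p, and not past the threshold, were Wdcp (1.304 ± 0.26, edgeR adjusted p = 0.0898), the noncoding Gm20186 (1.08 ± 0.23, adjusted p = 0.133) and the fibrillin gene Fbn2 (1.61 ± 0.35, adjusted p = 0.135). In Het2, KO1 and KO2, 1 member held 58.8%, 42.7% and 45.5% of the Wdcp UMIs.

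**Figure D3:**
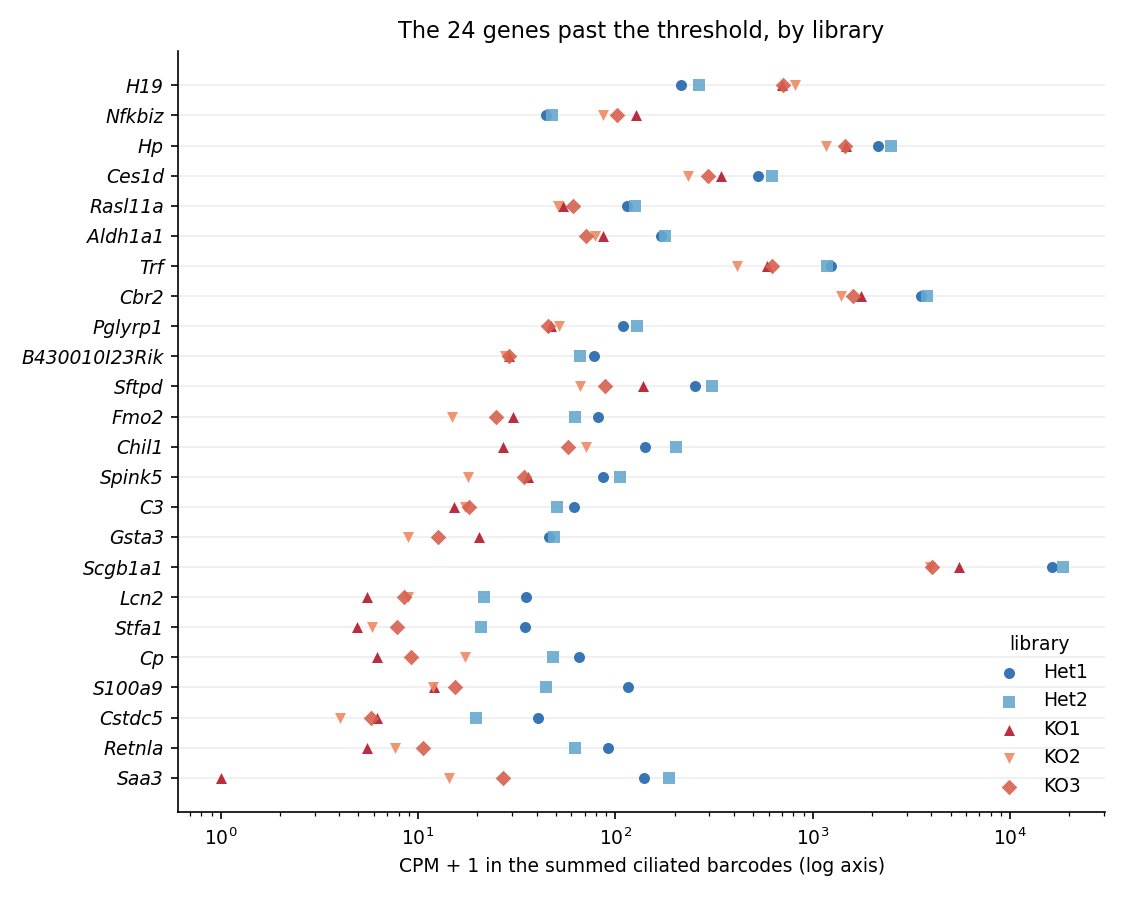
CPM + 1 (log axis) of the 24 genes past the threshold in each library's ciliated sum, ordered from the largest rise in KO to the largest fall. H19 and Nfkbiz lie higher in the 3 KO libraries, the other 22 lie lower, and no gene's groups overlap.

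In the lists tied to the known action of Zswim8, H19 was the 1 gene past the threshold. Of 11 tested microRNA hosts and decay triggers, 1 rose (H19) and 0 fell, with a median of 0.33. Their estimates ran from -1.70 to 1.63, 8 above zero and 3 below. An unadjusted edgeR p under 0.05 was found for 4 of the 11, against 5.61% of all genes. Groups did not overlap for 4 of the 11, against 21.4%. Lrrc58, Nrep and Plagl1, reported as triggers of microRNA decay, had estimates of 0.33, 0.47 and 0.101 (edgeR adjusted p = 0.927, 0.849 and 0.989). Among 9 tested cell cycle genes with reported sites for microRNAs of the miR-16 seed, 0 passed (median 0.04). Of 9 tested insulin-like growth factor genes 0 passed (median 0.16). Igf2, the fetal growth factor gene next to H19, was read at 129 CPM (Het1) and 171 CPM (Het2) against 232 (KO1), 235 (KO2) and 210.3 CPM (KO3), above both Het values in every KO library, with a difference of 0.596 ± 0.16 (edgeR adjusted p = 0.389). The other ligase subunits Cul3, Elob and Eloc had estimates of 0.07, -0.09 and -0.12, and none passed. Of 12 genes induced by tissue dissociation 0 passed, with a median of -0.19 and a smallest edgeR adjusted p of 0.138 (Dnajb1). An unadjusted p under 0.05 was found for 5 of the 12, against 5.61% of all genes, and 6 of the 12 had groups without overlap, against 21.4%. The estimates farthest from zero were those of the heat shock genes Hspa1a (-1.34 ± 0.32), Hspa1b (-1.33 ± 0.34) and Dnajb1 (-0.65 ± 0.14), with every KO library below both Het libraries.

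Most deep members held transcripts of centriole amplification, and this share overlapped between the genotypes. The stage was read from 8 genes of the deuterosome stage (Deup1, Ccno, Cdc20b, Mcidas, Gmnc, Ccdc78, Foxn4 and Myb), after each member was thinned to 5000 UMIs, which 190 members allowed. The share with at least 2 of the 8 was 61.02% (Het1) and 73.2% (Het2) against 60.6% (KO1), 78.6% (KO2) and 79.3% (KO3). Means were 67.1% ± 8.59 (SD, n = 2) for Het and 72.8% ± 10.6 (SD, n = 3) for KO, the groups overlapped, and an exact two-sided permutation test gave p = 0.6. Without thinning the means of the same members were 85.5% and 93.3%, without overlap (exact permutation p = 0.1), and KO members were the deeper ones. At 10000 UMIs or more, 124 of 171 members met the criterion and 47 did not, of which 31 held exactly 1 of the 8 genes, so the cut divides a continuous range. Those that did not numbered 20 (Het1) and 4 (Het2) against 13 (KO1), 4 (KO2) and 6 (KO3), so their levels rest on few barcodes in most libraries. Members that met it had more Foxj1 in 5 of 5 libraries, with a mean over libraries of 614 against 369 CPM. Tekt1 was also higher in 5 of 5 (291 against 155 CPM), as was the summed outer arm list (1943 against 1188 CPM). Cdk1, the mitotic kinase gene that multiciliating cells also use, averaged 173 against 81.8 CPM and was higher in 4 of 5. The proliferation list, which holds Cdk1, summed to 638 against 411 CPM and was higher in 4 of 5. Of its other genes, Top2a averaged 227 against 137 CPM (higher in 4 of 5). Mki67, at a low level, averaged 15.8 against 15.9 CPM (higher in 2 of 5). The summed secretory list ran the other way in all 5 libraries, at 23792 against 41284 CPM. Of its genes, Scgb3a2 and Hp were higher in the members that met the criterion in 0 of 5 libraries. Scgb1a1 was higher there in 2 of 5, and Cbr2 and Aldh1a1 in 1 of 5 each. Some marker lists of other cell types were lower too in the members that met it: the alveolar type 2 list summed to 526 against 3800 CPM (lower in 4 of 5 libraries), the mesenchymal list to 60.4 against 218 CPM (4 of 5) and the immune list to 69.3 against 173 CPM (3 of 5). Like the secretory list, the endothelial list (68.2 against 103 CPM) and the mesothelial list (88.1 against 184 CPM) were higher there in 0 of 5 libraries. The basal list (362 against 481 CPM) was higher in 1 of 5 and the alveolar type 1 list (447 against 695 CPM) in 2 of 5. In members that did not meet it, the type 2 sum ranged from 321 to 8442 CPM by library. The erythroid list was higher in the members that met it, at 3119.5 against 2199.6 CPM (4 of 5 libraries). The neuroendocrine list averaged 33.6 against 2.18 CPM and was higher in 2 of 5. The part of other cell types in the secretory difference was not tested. Across the 171 deep members, deuterosome-stage and proliferation UMIs per 10000 had a Spearman rho of 0.67, from 0.44 to 0.77 within single libraries. For deuterosome-stage against secretory UMIs it was -0.38, and for secretory UMIs against the share of held-out motile cilia genes -0.45. These are descriptions over barcodes that share libraries and depth, and the share of UMIs is divided among all genes. Within the members that met the criterion, Scgb1a1 fell by 1.65 (edgeR adjusted p = 3.40e-07) and H19 rose by 1.73 (edgeR adjusted p = 0.00105), an alternative chosen after the data were seen.

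**Figure D4:**
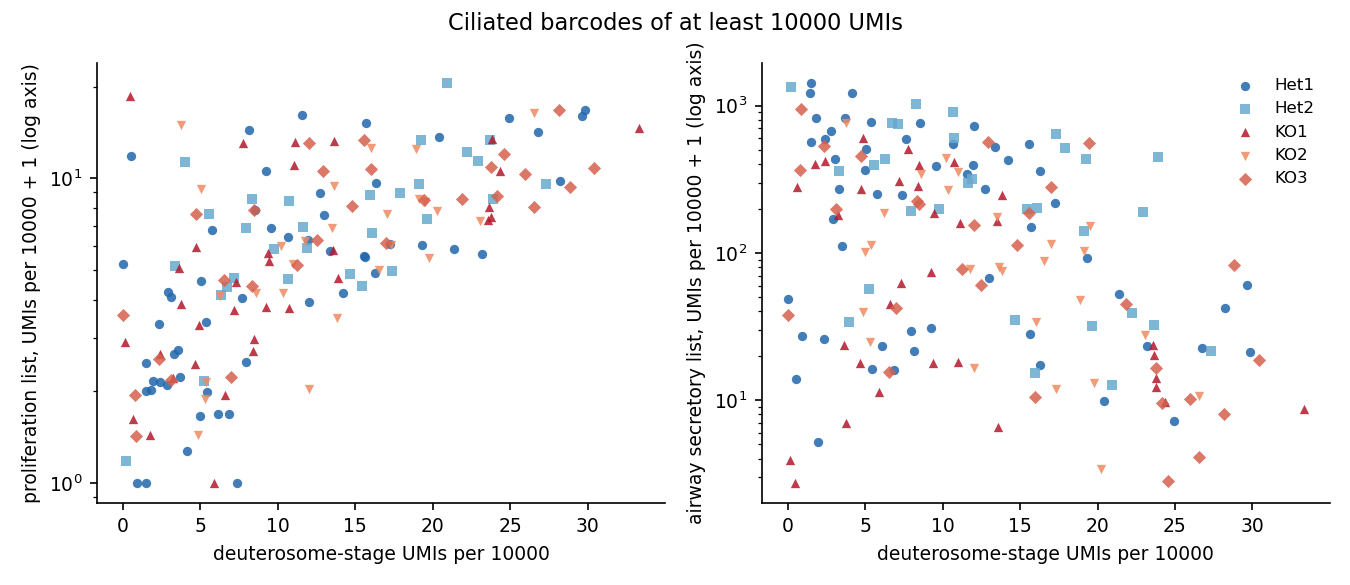
Each of the 171 ciliated barcodes of at least 10000 UMIs by its UMIs of 8 deuterosome-stage genes per 10000, against UMIs per 10000 + 1 (log axis) of the proliferation list (left) and the airway secretory list (right), with libraries by colour and shape. The proliferation list is higher and the secretory list lower toward the right (Spearman rho 0.67 and -0.38).

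The other epithelial cells of the same 5 embryos were compared in the same way, and 23 of 12999 genes passed there (0.177%). Scgb1a1 was at 2480.1 CPM (Het1) and 1677 CPM (Het2) against 923 (KO1), 938 (KO2) and 1001 CPM (KO3) in those sums, a difference of -1.12 ± 0.17 (edgeR adjusted p = 0.0645). The interaction, the difference between the cell classes in the KO minus Het change, was -0.86 ± 0.22, with an unadjusted p of 0.0022 and an adjusted p of 0.261, so a larger change in ciliated cells was not shown. Cbr2 was at 872 CPM (Het1) and 781 CPM (Het2) against 368 (KO1), 301 (KO2) and 291 CPM (KO3) there, a change of -1.37 ± 0.13 (edgeR adjusted p = 0.024). H19 was at 254 CPM (Het1) and 528 CPM (Het2) against 1299 (KO1), 967 (KO2) and 698 CPM (KO3), a difference of 1.34 ± 0.36 (edgeR adjusted p = 0.177) with an interaction of 0.25 ± 0.28 (adjusted p = 0.878). Retnla had higher levels there than in ciliated cells, at 1911 CPM (Het1) and 1551 CPM (Het2) against 152 (KO1), 251 (KO2) and 374 CPM (KO3), a change of -2.74 ± 0.33 (edgeR adjusted p = 0.038). C3 was at 132 CPM (Het1) and 202 CPM (Het2) against 33.9 (KO1), 23.4 (KO2) and 29.2 CPM (KO3), a change of -2.54 ± 0.22 (edgeR adjusted p = 0.0231). Cstdc5 and Sftpd also fell there, by 1.91 and 1.53 (edgeR adjusted p = 0.0377 and 0.038), and the classes come from the same embryos. The estimates of Aldh1a1 and Gsta3, which fell in ciliated cells, were 0.16 and 0.03 in other epithelial cells (edgeR adjusted p = 0.883 and 0.976), with interactions of -1.29 and -1.91 that missed the threshold (edgeR adjusted p = 0.193 and 0.0745). Of the 24 ciliated calls 0 passed the edgeR interaction test and 13 had an unadjusted p under 0.05, against 6 (0.0453%) and 1035 of 13231 genes tested. The 24 were chosen by their difference in the same ciliated sums that enter the interaction. The count of 13 therefore cannot show a change particular to ciliated cells.

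The genotype difference itself differed between ciliated and other epithelial cells for 6 genes, of which Hdc, Fabp5, Acta2 and Cdk1 overlapped between genotypes in ciliated cells. Hdc, the histidine decarboxylase that makes histamine, was read in ciliated cells at 284 CPM (Het1) and 240.4 CPM (Het2) against 230.2 (KO1), 277 (KO2) and 212 CPM (KO3), with overlapping groups. In other epithelial cells it was at 40.2 CPM (Het1) and 29.4 CPM (Het2) against 2.24 (KO1), 3.02 (KO2) and 6.11 CPM (KO3), and the interaction was 3.02 ± 0.32 (edgeR adjusted p = 0.00473). Deep members with an Hdc UMI numbered 47 of 54 (Het1) and 29 of 30 (Het2) against 25 of 33 (KO1), 25 of 26 (KO2) and 24 of 28 (KO3). The Hdc interaction missed the threshold without Het1 (adjusted p = 0.17) or KO2 (0.0512). Mia, a small secreted protein gene, was read in ciliated cells at 288 CPM (Het1) and 257 CPM (Het2) against 198 (KO1), 232 (KO2) and 256 CPM (KO3). Its level in the other cells was 48.4 CPM (Het1) and 37.9 CPM (Het2) against 70.8 (KO1), 92.5 (KO2) and 86.1 CPM (KO3), higher in every KO library. Its interaction was -1.19 ± 0.17 (edgeR adjusted p = 0.0451). Cdk1 had overlapping groups in ciliated cells, at 123 CPM (Het1) and 187 CPM (Het2) against 104 (KO1), 147 (KO2) and 184 CPM (KO3). In the other cells every KO library was higher, at 12.6 CPM (Het1) and 17.1 CPM (Het2) against 23.8 (KO1), 36.6 (KO2) and 40.1 CPM (KO3), and the Cdk1 interaction was -1.25 ± 0.18 (edgeR adjusted p = 0.0451). Fabp5, a fatty acid-binding protein gene, and Lyz2, a lysozyme gene whose reads can be split with its copy Lyz1, were low in ciliated cells, at 50.3 to 108 and 14.3 to 65.7 CPM over the 5 libraries. In ciliated cells 1 member held 92 of the 158 Fabp5 UMIs of KO3 (58.2%), and 1 member of Het1 held 38.3% of the Lyz2 UMIs there. Every KO library lay below both Het libraries for Lyz2 in ciliated cells, and its difference of -1.51 ± 0.28 missed the threshold (edgeR adjusted p = 0.0691). In other epithelial cells Fabp5 was at 2132 CPM (Het1) and 1740.3 CPM (Het2) against 538 (KO1), 485 (KO2) and 880.2 CPM (KO3), and Lyz2 at 1902 CPM (Het1) and 1865 CPM (Het2) against 152 (KO1), 128 (KO2) and 427 CPM (KO3). The Fabp5 interaction was 1.603 ± 0.21 and that of Lyz2 1.602 ± 0.24 (edgeR adjusted p = 0.0255 and 0.0453). For Acta2 the interaction was -4.22 ± 0.44 (edgeR adjusted p = 0.00473), with 78.9% of its Het1 UMIs in 1 member, and without Het1 the adjusted p was 0.683. Mia, Cdk1 and Lyz2 each missed it without Het1 (0.17, 0.199 and 0.17), Het2 (0.106, 0.14 and 0.0923), KO2 (0.154, 0.151 and 0.151) or KO3 (0.0808, 0.0812 and 0.0804), and Fabp5 without KO2 (0.0602) or KO3 (0.0831). Within other epithelial cells alone, the genotype difference passed the threshold for Hdc (edgeR adjusted p = 0.0281). There it missed for Fabp5, Lyz2, Acta2, Mia and Cdk1 (edgeR adjusted p = 0.0738, 0.0803, 0.48, 0.0899 and 0.12). The other epithelial class holds alveolar and airway cells. Its alveolar type 2 list summed to 78265 CPM (Het1) and 57008 CPM (Het2) against 31496 (KO1), 29844 (KO2) and 46344 CPM (KO3). Its immune list summed to 2085 CPM (Het1) and 1996 CPM (Het2) against 285 (KO1), 195 (KO2) and 531 CPM (KO3). The type 1, secretory and endothelial sums were also lower in every KO library, and the proliferation sum was higher. The mesenchymal, mesothelial, basal, neuroendocrine and erythroid sums overlapped. The makeup of this class by genotype was not tested.

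**Figure D5:**
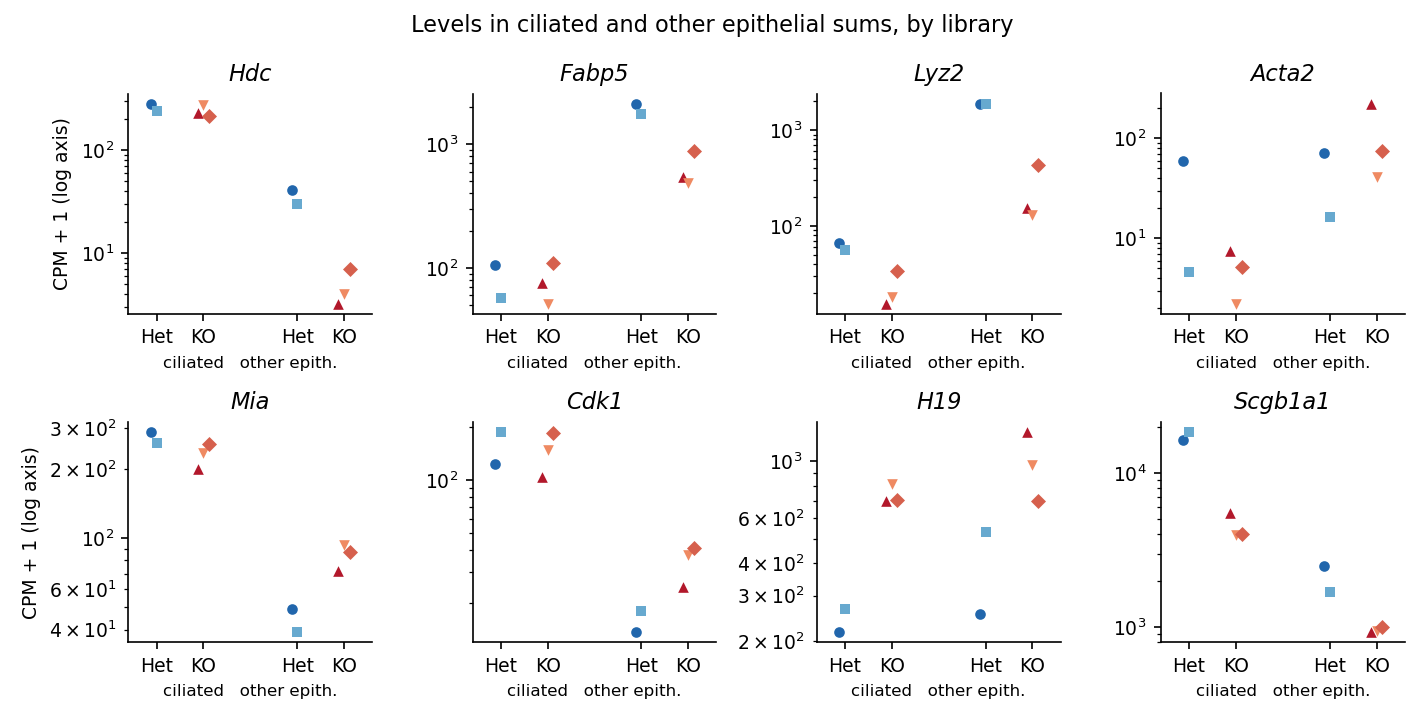
CPM + 1 (log axis) by library in the ciliated sums (left pair of columns) and other epithelial sums (right pair) for the 6 genes past the interaction threshold, with H19 and Scgb1a1 beside them. Hdc overlaps between genotypes in ciliated cells and is lower in KO in the other cells, and H19 is higher in KO in both classes.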

How the data were processed

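Whole E18.5 lungs of 2 Het and 3 KO embryos were dissociated, and droplet 3′ libraries were made. The deposited files hold UMI counts per gene and barcode for 32285 features, made with Cell Ranger 4.0.0 and the mm10 build, per the submitters' processing notes. Filtering beyond this is not given in the sources used here, and no cell annotation was used here. Members were found by the rule given above, and their counts were summed per library. Sums were tested with edgeR 4.0.16 in R 4.3.3 (quasi-likelihood, TMM, filterByExpr, Benjamini-Hochberg threshold 0.05), and the interaction also had a library block. Shares were tested by exact permutation over libraries, with members thinned to 5000 UMIs for the stage. Named were Zswim8, the called genes with the largest change (at most 12 in each direction, filled up to 5 by unadjusted p), the 10 genes of at least 100 CPM with the largest ratio to other epithelial cells, called list members, the 3 highest genes of each cilia list and the interaction calls. Members and lists were chosen with earlier results of these data known. Gene positions are those of GENCODE M21, which held 32158 of the 32285 IDs, and promoters come from RefSeq on GRCm38.p6. Alternatives were other scalings and low-count filters, DESeq2 1.42.0, sex as a covariate, a replicate block, other member rules and leaving out each library. The tests were tried on simulated counts before use. In the ciliated sums, 114 of 194 simulated log2 changes of 1 were recovered (58.8%), and 190 of 196 changes of 2 (96.9%). False calls there numbered 1 and 6. The interaction test recovered 169 of 200 changes of 2 (84.5%) with 8 false calls. Simulated counts had a spread set by expression level alone and no effect shared by both cell classes of a library. The rates may therefore differ in the real sums.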

Additional observations from a re-analysis of the deposited data

Results flagged for a closer look

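The KO minus Het difference was tested to differ between ciliated and other epithelial cells, and the 6 genes past that threshold are collected here with the size of the difference on the log2 scale. It was 3.02 for Hdc, 1.603 for Fabp5 and 1.602 for Lyz2, whose KO values were lower in other epithelial cells. It was -4.22 for Acta2, -1.19 for Mia and -1.25 for Cdk1. In ciliated cells Acta2 was read at 58.2 CPM (Het1) and 3.63 CPM (Het2) against 6.49 (KO1), 1.21 (KO2) and 4.11 CPM (KO3). In other epithelial cells its level was 70.96 CPM (Het1) and 15.4 CPM (Het2) against 222 (KO1), 40.3 (KO2) and 74.005 CPM (KO3). Of 8 other settings, Hdc passed in 6, Fabp5 in 5, Lyz2 in 3, Acta2 in 7, Mia in 3 and Cdk1 in 3. Groups of 2 and 3 libraries were too small for a test of a single library that stands apart.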

How the results depend on the processing

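In place of the 24 genes past the threshold in the ciliated sums, edgeR called 208 with no low-count filter, 5 with sex as a covariate and 14 without the exclusion of other cell types, and leaving out 1 library gave 4 (without Het1) to 52 (without KO1). The other settings gave 18 to 35, the latter with DESeq2. The replicate block gave 60 calls, 13 higher and 47 lower, which held all 24. Deviations of same-numbered libraries from their group mean had correlations of 0.219 (Het1 and KO1) and 0.0423 (Het2 and KO2). With 2 Het libraries these deviations mirror each other, so Het1 and KO2 had -0.0423. The correlations therefore cannot decide whether the numbers pair the samples. The 6 interaction genes became 2 with scaling by library size alone, 221 with no low-count filter and 13 with at least 4 rule genes, and 1 to 16 with 1 library left out.

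At 10000 UMIs or more, chosen after seeing the data, the difference in the ciliated share (KO minus Het, percentage points) was -0.138 of kept and 1.95 of epithelial barcodes. With 1 library left out these shares differed by -1.97 to -0.792 and by -10.3 to -3.54, and the share with deuterosome-stage genes by -0.341 to 11.8. The Zswim8 estimate (log2) turned to -0.0044 under the stricter barcode limits (1000 genes, 10% mitochondrial UMIs) and to -0.0137 in deuterosome-stage members, and that of Stfa1 to 0.346 without the exclusion of other cell types. The cause of these shifts was not tested, and scaling by library size alone moved the median of all genes to 0.10.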
